A study of Danio rerio with 15 samples.

Results

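Uninjected MZdicer embryos were compared with uninjected wild-type embryos at 9 hours after fertilization, 3 arrays against 3. The labels' titles chose these 6 arrays of the 15 in the series. The genotypes stand as MZ Dicer mutants and wild type, with no strain and no allele given for them. Each Affymetrix Zebrafish array carried RNA of 20 whole embryos pooled, so an array is a pool and not an animal, and no label ties the replicates to separate clutches. The p-values therefore measure only how these samples differ among themselves, and that spread may be technical. In whole embryos, fewer cells of a type and less RNA per cell cannot be told apart. The remaining arrays hold both genotypes injected with miR-430 at the one-cell stage (3 arrays each, age not stated), wild type at the 16-cell stage (2 arrays) and wild type at 50% epiboly (1 array). The injected arrays entered the fit to share its estimate of spread.

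Dicer cuts microRNA precursors into mature microRNAs, which guide Argonaute proteins to messenger RNAs and lead to their deadenylation and decay. MZdicer embryos lack Dicer from the egg as well as from their own genome and so make no mature microRNAs of the usual kind. In zebrafish the miR-430 family, made when the embryo's genome is switched on, is known for the clearance of many messages laid down in the egg. At 9 hours the embryo is in late gastrulation, when germ layers are set and the body axis extends.

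Values are deposited intensities, quantile normalised over 12 arrays, and a level below is such a normalised intensity of 1 probe set. Changes are differences of log2(intensity + 16), MZdicer minus wild type, with the standard error of limma's fit. A probe set was called at a Benjamini-Hochberg adjusted p under 0.05 over all 15502 probe sets tested. All adjusted p-values are limma's. Many of the genes named below were chosen among called genes whose MZdicer and wild-type arrays did not overlap. Their separation is a condition of that choice and not a result. The share of all named genes with such separation was not counted. Levels of different probe sets are not on a common scale and are not set against each other. Median deposited intensities of the 6 arrays lay between 170 and 195, and the number of arrays, not depth, limits the precision.

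The dicer1 transcript was at 309, 288 and 310 in MZdicer, against 485, 432 and 443 in wild type. The groups did not overlap, and the change was -0.56 ± 0.07 (adjusted p = 3.43e-05). The position of its probes against the mutated site was not available, so this transcript's signal checks nothing about the labels. All 3 MZdicer arrays and 2 of the wild-type arrays shared a scan day. A hybridisation run means arrays with the same hybridisation date and time in their headers. No hybridisation run and no fluidics station held both groups, so neither can be told apart from genotype. The control ratio of middle to 5′ actin probes, taken with the dimmer 5′ actin probe set, was 18.9, 20.4 and 15.4 on MZdicer arrays. On wild-type arrays it was 8.7, 10.2 and 10.9, without overlap. The brighter 5′ actin probe set stood at 297.7, 341.2 and 337.0 in MZdicer, against 229.0, 260.3 and 276.7 in wild type. The middle actin probe set stood at 2209, 2291 and 1813 in MZdicer, against 1171, 1414 and 1475 in wild type. The ratio to the brighter 5′ set was not computed, so the separation is shown for the dimmer set alone. For GAPDH the ratio of middle to 5′ probes was 0.981, 0.861 and 1 on MZdicer arrays against 0.683, 0.866 and 0.843 on wild-type arrays, with overlap. The ratio of 3′ to 5′ GAPDH probes was 0.184, 0.209 and 0.195 against 0.146, 0.177 and 0.161 on wild-type arrays, without overlap. These ratios can move with RNA integrity or amplification, and their part in the results below was not tested.

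Without Dicer, genes that build ribosomes fell almost as a block, and splicing factor, RNA helicase and RNA exosome genes were more often lower than higher. Genes of fatty acid oxidation, the tricarboxylic acid cycle, ATP synthase, glycolysis and amino acid metabolism were more often higher, while the rest of the respiratory chain was mixed. Genes of antioxidant enzymes, DNA replication and repair, and the cytoskeleton were also more often higher. Nodal pathway, endoderm and axial mesoderm genes were more often lower than higher, while paraxial and ventral mesoderm genes showed no such lean with the quantile normalised values. Of 8793 named genes, each represented by its probe set of highest mean, 2087 (23.7%) were called higher in MZdicer and 2439 (27.7%) lower. Changes of at least 1.5-fold were called upward in 938 genes (10.7%) and downward in 636 (7.23%). Over all 15502 probe sets the shares were 22.2% higher and 25.2% lower, with 10.5% at least 1.5-fold higher and 6.54% at least 1.5-fold lower. The split depends on scaling. Of all calls 46.9% were higher here, 65% without any normalisation of the deposited values and 40.6% after centring each array on its median. The median change over all probe sets was -0.07 here, 0.03 without normalisation and -0.12 after median centring.

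A total of 68 gene lists covering 2952 genes were counted against these shares, and no test was run on a list. In 26 lists both shares lay within 10 percentage points of those over all named genes. They include ubiquitin enzymes, solute carriers, chromatin modifiers, vesicle coats, junction genes and the neural plate. The plot of list shares sets all lists of 10 or more genes side by side.

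**Figure D1:**
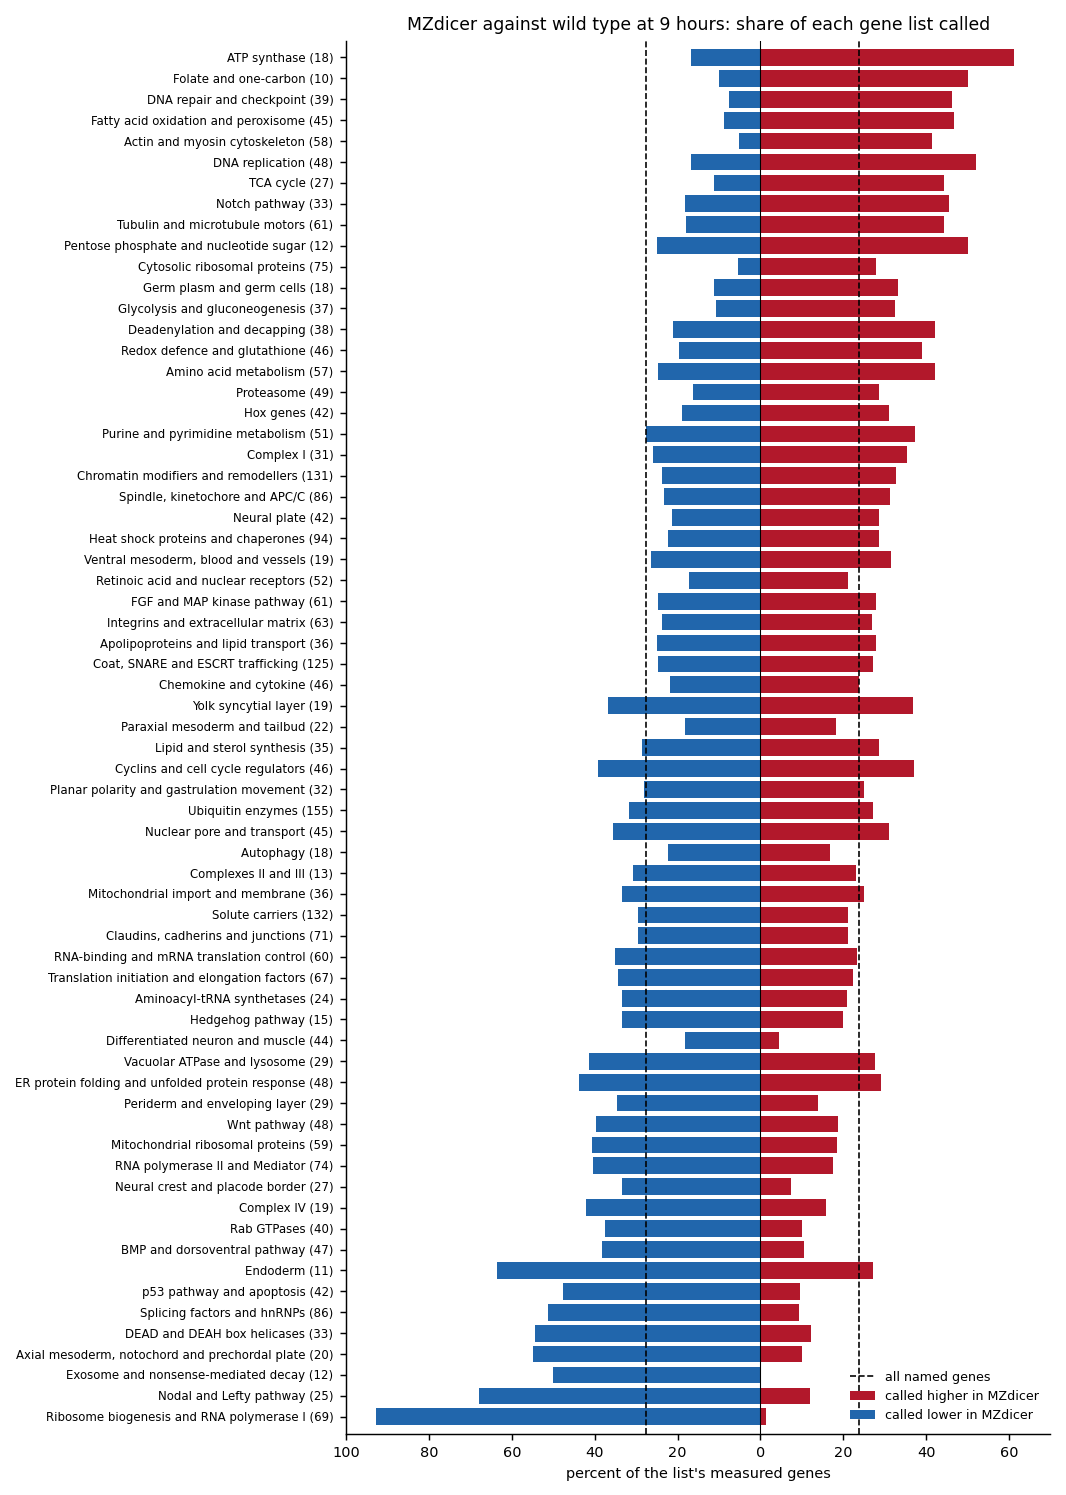
Percent of each gene list's measured genes called higher (right, red) or lower (left, blue) in MZdicer than in wild type, for all lists of 10 or more genes, with the number of genes in brackets and dashed lines at the shares over all named genes (23.7% and 27.7%). The ribosome biogenesis list stands at the foot with 64 of 69 genes lower, and the ATP synthase list at the head with 11 of 18 genes higher.

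Ribosome biogenesis takes place in the nucleolus, where RNA polymerase I makes the ribosomal RNA precursor and a large set of factors cuts, modifies and folds it with ribosomal proteins. Of 69 such genes 64 were called lower in MZdicer and 1 higher, with a median change of -0.48, and 21 of the 64 fell at least 1.5-fold. The gene rrs1, whose yeast counterpart is an assembly factor of the large subunit, stood at 399, 356 and 360 in MZdicer, against 981, 1349 and 1254 in wild type (-1.63 ± 0.11, adjusted p = 9.26e-08). The small-subunit factor gene tsr1 stood at 701, 656 and 649 against 1727, 1587 and 1481 in wild type (-1.24 ± 0.06, adjusted p = 1.02e-08). In both genes every MZdicer array lay below every wild-type array. The RNA helicase gene ddx52 stood at 246, 207 and 276 in MZdicer, against 600, 732 and 615 in wild type (-1.36 ± 0.10, adjusted p = 2.28e-07). The nucleolar gene surf6 stood at 456, 462 and 460 against 1032, 952 and 968 in wild type (-1.07 ± 0.06, adjusted p = 2.95e-08). These groups did not overlap either. The exception was nol11, a small subunit processome gene, at 858, 889 and 805 in MZdicer against 723, 691 and 707 in wild type (0.26 ± 0.07, adjusted p = 0.00662). The 4 members not called were npm1b (0.19), nol9 (0.07), nop53 (0.03) and noc3l (0.02).

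Falls were counted in each of 4 subsets of the list, which were drawn up after the values were seen. All 6 subunit genes of RNA polymerase I were lower, at changes between -0.79 and -0.36. So were the 4 core genes of the box C/D and H/ACA particles that modify ribosomal RNA, at -0.56 to -0.36. Of 30 genes of the small subunit processome and 18S RNA maturation 29 were lower, with a median of -0.47. Of 21 genes of large subunit maturation 19 were lower, with a median of -0.52. Members of 2 classes of timing in wild type fell alike. Of 41 members that differed by less than 2-fold between the 16-cell stage and 50% epiboly 39 fell, and of 26 at least 2-fold higher at 50% epiboly 24 fell. Over all named genes of these classes 1553 of 5301 and 560 of 1479 fell. The class at least 2-fold higher at 16 cells held only 2 members, 1 higher and 1 lower. The count of lower genes in the list was 54 without normalisation and 63 under median centring. It ranged from 60 to 64 as each of the 12 arrays was left out in turn, and was 63 within the shared scan day.

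**Figure D2:**
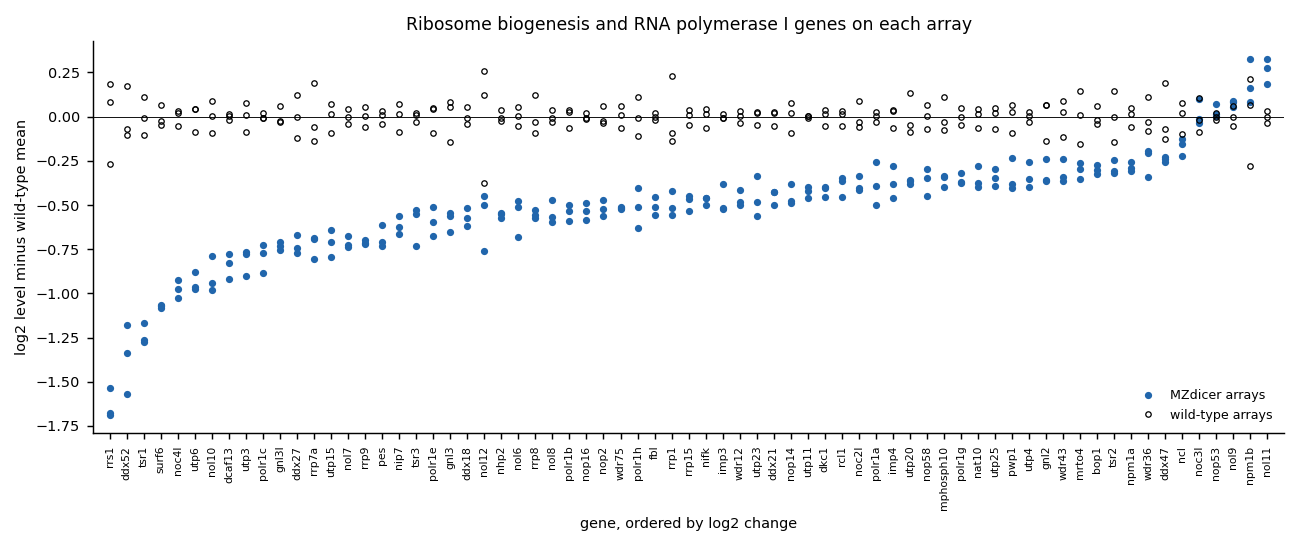
Log2 level of each of the 69 ribosome biogenesis and RNA polymerase I genes on the 3 MZdicer arrays (filled blue) and the 3 wild-type arrays (open), relative to the gene's wild-type mean and ordered by change. The MZdicer points lie below the wild-type points along nearly the whole axis, from rrs1 (-1.63) on the left to nol11 (0.26) on the right.

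The same genes were read in the injected embryos, whose arrays are not part of the comparison above. Of the 69 genes 10 were higher and 5 lower in injected MZdicer than in injected wild type, where 12.5% of named genes were called higher and 10.4% lower. The interaction of genotype and injection, the uninjected difference minus the injected one, was called lower for 59 of the 69 and higher for 0, against 12.8% lower and 12.8% higher over all named genes. For tsr1 it was -1.32 (adjusted p = 7.81e-07) and for surf6 -1.02 (adjusted p = 5.92e-06). Both genes were chosen for their falls on the uninjected arrays, which enter the interaction, so that choice favours these p-values. The median level of the list, relative to each gene's mean over 12 arrays, lay between -0.38 and -0.35 on the 3 MZdicer arrays and between 0.09 and 0.17 on the other 9. Injected and uninjected MZdicer arrays shared a hybridisation run but not a fluidics station. Injected wild-type replicate 3 was in that run too, on the station of uninjected MZdicer. Injected wild-type replicates 1 and 2 were in another run, with no station recorded. Run and genotype are thus partly mixed in the injected contrast and in the interaction. As every injected group received miR-430, its effect and that of injecting an embryo cannot be told apart.

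**Figure D3:**
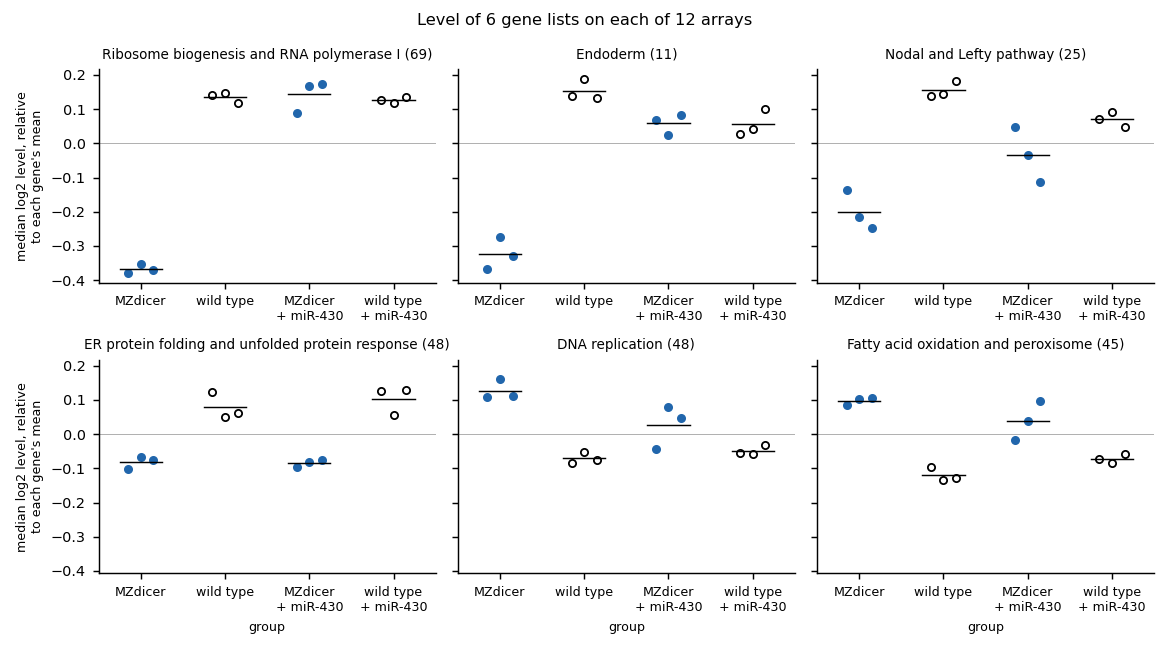
Median log2 level of 6 gene lists on each of 12 arrays, relative to each gene's mean over the 12, for MZdicer (filled blue) and wild type (open), without and with miR-430 injection, with a bar at the mean of each group's 3 arrays. The ribosome biogenesis list is low on the 3 uninjected MZdicer arrays alone (-0.38 to -0.35), while the list of protein folding in the endoplasmic reticulum is below 0 on all 6 MZdicer arrays.

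Some other RNA-handling lists leaned the same way. Of 86 splicing factor and hnRNP genes 44 were lower and 8 higher, with a median of -0.16, but their changes were small and only 6 fell at least 1.5-fold. The counts were 38 lower and 9 higher without normalisation, and 58 lower and 5 higher under median centring. The core spliceosome gene snrpd3 stood at 1499, 1757 and 1624 in MZdicer, against 2793, 2603 and 2778 in wild type (-0.74 ± 0.09, adjusted p = 1.7e-05). The gene snrpb2, of the U2 particle, went the other way at 1795, 1710 and 1662 against 753, 1229 and 1066 in wild type (0.78 ± 0.13, adjusted p = 2.03e-04). Neither gene's groups overlapped. Of 33 DEAD and DEAH box helicase genes 18 were lower and 4 higher, and 12 and 5 with the values as deposited. Among the 18, ddx18, ddx21, ddx27, ddx47 and ddx52 stand in the ribosome biogenesis list too. Of these, ddx47 lost its call with the deposited values. The helicase gene ddx56 (-0.91 ± 0.06, adjusted p = 4.47e-08) and the germ cell gene ddx4 (-1.10 ± 0.12, adjusted p = 5.24e-06) fell. In the other direction ddx19a, a gene of mRNA export, stood at 95.7, 93.2 and 103 in MZdicer, against 20.3, 20.2 and 16.6 in wild type (1.69 ± 0.10, adjusted p = 4.03e-08), with no overlap.

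Of 12 genes of the RNA exosome, nonsense-mediated decay and nuclear 5′ to 3′ decay 6 were lower and 0 higher, and the 6 not called ranged from exosc9 (-0.22) to smg8 (-0.01). The exosome nuclease gene exosc10 stood at 533, 528 and 533 in MZdicer, against 961, 913 and 913 in wild type (-0.79 ± 0.06, adjusted p = 1.61e-07). Cytoplasmic deadenylation and decapping genes showed the reverse lean, with 16 of 38 higher and 8 lower. The decapping-associated gene lsm4 stood at 2259, 2681 and 2516 in MZdicer, against 792, 817 and 801 in wild type (1.61 ± 0.09, adjusted p = 1.46e-08). Neither of these genes overlapped between the groups. Among 75 genes of cytosolic ribosomal proteins 21 were higher and 4 lower, yet 2 higher and 45 lower under median centring, so no direction can be given for them. Among 59 genes of mitochondrial ribosomal proteins 11 were higher and 24 lower, and 16 higher and 11 lower with the values as deposited, so theirs turns with scaling too.

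Fatty acid oxidation genes were among the most often raised. In this pathway acyl chains enter the mitochondrion on carnitine and are shortened by acyl-CoA dehydrogenases and the trifunctional protein. Of 45 genes in the list of fatty acid oxidation and peroxisomes 21 were higher and 4 lower, with a median of 0.21, and 14 rose and 0 fell by at least 1.5-fold. The long-chain acyl-CoA dehydrogenase gene acadl was at 288, 327 and 322 in MZdicer, against 13.8, 13.9 and 14.5 in wild type (3.44 ± 0.09, adjusted p = 8.31e-11). The trifunctional protein gene hadhb was at 1257, 1268 and 1295 against 346, 284 and 289 in wild type (2.01 ± 0.13, adjusted p = 9.16e-08). By the rule of choice, every MZdicer array stood above every wild-type array in both. The peroxisomal fatty acid transporter gene abcd3a stood at 527, 590 and 491 in MZdicer, against 141, 99.6 and 100 in wild type (2.10 ± 0.13, adjusted p = 4.03e-08). The dehydrogenase gene acad8, which acts in valine breakdown, stood at 200, 189 and 188 against 37.5, 23.5 and 29.1 in wild type (2.19 ± 0.16, adjusted p = 1.86e-07). Both again separated the groups.

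By function, in subsets drawn up after the values were seen, 5 of 7 acyl-CoA dehydrogenase genes and all 3 trifunctional protein genes rose, with medians of 0.82 and 1.81. The falls were smaller: the electron transfer gene etfa stood at 320, 302 and 278 in MZdicer, against 396, 429 and 377 in wild type (-0.40 ± 0.08, adjusted p = 9.92e-04), without overlap. The list's symbols also took in pmp22a and pmp22b, which are peripheral myelin genes and not peroxisomal, 1 in each direction. Several of the raised genes were abundant early. On the 2 arrays of the 16-cell stage and the single array of 50% epiboly, normalised over all 15 arrays, acadl was at 1102 and 1137 and then 33.1. For abcd3a the levels were 1651 and 1581 at 16 cells and 107 at 50% epiboly, so both had declined in wild type before 9 hours. Of the 17 list members at least 2-fold higher at 16 cells than at 50% epiboly 10 were higher in MZdicer and 0 lower. Over all named genes of that class 797 of 2013 were higher and 326 lower. Of the 24 list members that differed by less than 2-fold, 10 were higher and 3 lower. Counts of higher and lower were 25 and 0 without normalisation, and 20 and 5 under median centring. With arrays left out in turn they ranged from 19 to 22 and from 2 to 6.

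The tricarboxylic acid cycle, which burns the acetyl groups so made, had 12 of 27 genes higher and 3 lower, with a median of 0.17. The malate dehydrogenase gene mdh2 stood at 1842, 1896 and 1882 in MZdicer, against 643, 581 and 581 in wild type (1.61 ± 0.08, adjusted p = 1.18e-08). Citrate synthase, cs, stood at 2326, 2266 and 2314 against 1124, 1157 and 1131 in wild type (1.01 ± 0.07, adjusted p = 2.13e-07). Succinate dehydrogenase, sdha, stood at 1032, 949 and 968 against 475, 521 and 522 in wild type (0.94 ± 0.07, adjusted p = 1.84e-07). None of the 3 overlapped between the groups, while idh3g, a regulatory subunit of isocitrate dehydrogenase, fell (-0.79 ± 0.10, adjusted p = 3.39e-05). Between the early stages 22 of the 27 cycle genes differed by less than 2-fold, and 8 of those 22 rose and 3 fell. Over all named genes of that class 924 of 5301 rose and 1553 fell. The lower count of the cycle list dropped to 1 with the values as deposited. With arrays left out in turn 8 to 12 cycle genes were higher and 1 to 3 lower.

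At the respiratory chain the picture was mixed. ATP synthase genes had 11 of 18 higher and 3 lower, the subunit gene atp5mc3a at 5353, 5491 and 5115 in MZdicer against 3319, 3007 and 3120 in wild type (0.75 ± 0.06, adjusted p = 5.6e-07). Complex I genes had 11 of 31 higher and 8 lower, with ndufb10 at 394, 436 and 413 in MZdicer against 177, 134 and 123 in wild type (1.44 ± 0.14, adjusted p = 2.1e-06). Both genes separated the groups. With the values as deposited the complex I counts were 13 and 1, and 2 to 8 were lower as arrays were left out. Complex IV genes had 3 of 19 higher and 8 lower, with no member at least 1.5-fold lower.

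In glycolysis 12 of 37 genes were higher and 4 lower, and 11 of the 12 rose at least 1.5-fold, while the list's median was 0.02. The pyruvate kinase gene pkma was at 454, 422 and 420 in MZdicer, against 72.7, 60.9 and 63.7 in wild type (2.46 ± 0.20, adjusted p = 4.56e-07). The triose phosphate isomerase gene tpi1a was at 173, 198 and 211 against 41.3, 29.7 and 31.2 in wild type (2.07 ± 0.12, adjusted p = 2.16e-08). The lactate dehydrogenase gene ldha was at 247, 317 and 345 against 98.1, 63.9 and 64.6 in wild type (1.81 ± 0.16, adjusted p = 1.19e-06). In all 3 the groups stood apart. Hexokinase, hk1, which starts the pathway, was lower at 304, 306 and 313 in MZdicer against 729, 665 and 670 in wild type (-1.12 ± 0.08, adjusted p = 2.02e-07). The enolase gene eno3 fell as well (-1.10 ± 0.10, adjusted p = 8.77e-07). Both pkma and tpi1a were high at 16 cells, at 4679 and 4873 for pkma and 1402 and 1606 for tpi1a, and stood at 270 and 56.6 at 50% epiboly. Of the 11 list members that declined at least 2-fold in this way 7 were higher in MZdicer and 0 lower. Over all named genes of that class 797 of 2013 were higher and 326 lower. In injected embryos 4 of the 37 were higher in MZdicer and 8 lower, against 12.5% and 10.4% of all named genes. The interaction was called higher for 12 and lower for 3, against 12.8% each way over all named genes. Levels of tpi1a were 28.5, 26.7 and 29.5 in injected MZdicer against 29.9, 25.8 and 24.1 in injected wild type (interaction 2.01 ± 0.16, adjusted p = 3.22e-06). As tpi1a was chosen for its rise on the uninjected arrays, that choice favours its interaction p-value. Glycolysis genes called lower were 3 to 7 as arrays were left out, and 7 within the shared scan day.

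Amino acid and one-carbon metabolism changed in both directions. Of 57 amino acid genes 24 were higher and 14 lower, 15 and 5 of them by at least 1.5-fold. The aspartate aminotransferase gene got2a was at 312, 305 and 341 in MZdicer, against 33.3, 28.8 and 30.5 in wild type (2.84 ± 0.17, adjusted p = 3.91e-08). The alanine aminotransferase gene gpt2 was the largest fall in the list, at 56.7, 64.4 and 65.3 against 188, 198 and 223 in wild type (-1.49 ± 0.11, adjusted p = 2.28e-07). Neither overlapped. The lower count was 7 without normalisation and 17 under median centring, and 7 to 14 as arrays were left out. Of 10 folate and one-carbon genes 5 were higher and 1 lower. Methionine synthase, mtr, stood at 254, 219 and 239 in MZdicer, against 80.6, 64.4 and 65.9 in wild type (1.55 ± 0.11, adjusted p = 1.68e-07). Thymidylate synthase, tyms, which makes the thymidine nucleotide of DNA, stood at 681, 709 and 624 against 277, 280.5 and 254 in wild type (1.26 ± 0.07, adjusted p = 2.21e-08). The groups of both stood apart. The mitochondrial serine hydroxymethyltransferase gene shmt2, which feeds the same pathway, fell (-0.86 ± 0.11, adjusted p = 2.12e-05).

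Among 46 genes of redox defence and glutathione 18 were higher and 9 lower, 14 and 5 of them by at least 1.5-fold. The peroxiredoxin gene prdx2 was at 3355, 3510 and 3165 in MZdicer, against 746, 745 and 641 in wild type (2.21 ± 0.08, adjusted p = 1e-09). The glutathione transferase gene gstp1.2 stood at 1045, 1089 and 1082 in MZdicer, against 245, 233 and 201 in wild type (2.17 ± 0.13, adjusted p = 4.88e-08). For gstm.1, of the same enzyme class, the levels were 2762, 2656 and 2531 in MZdicer, against 557, 731 and 562 in wild type (2.08 ± 0.09, adjusted p = 2.51e-09). All 3 separated the groups. Among other transferase genes gsto2 was lower (-0.71), and gstk1 (-0.10), gsto1 (-0.06), gstt1a (0.003), gstt1b (-0.11) and gstcd (0.33) were not called. Further members fell: the methionine sulfoxide reductase gene msrb1b was at 114, 116 and 155 in MZdicer against 529, 538 and 567 in wild type (-1.97 ± 0.11, adjusted p = 2.4e-08). The gene gclm, for a subunit of the enzyme that starts glutathione synthesis, was also lower (-1.02 ± 0.09, adjusted p = 7.54e-07). Of 5 peroxiredoxin genes 3 rose and 0 fell.

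**Figure D4:**
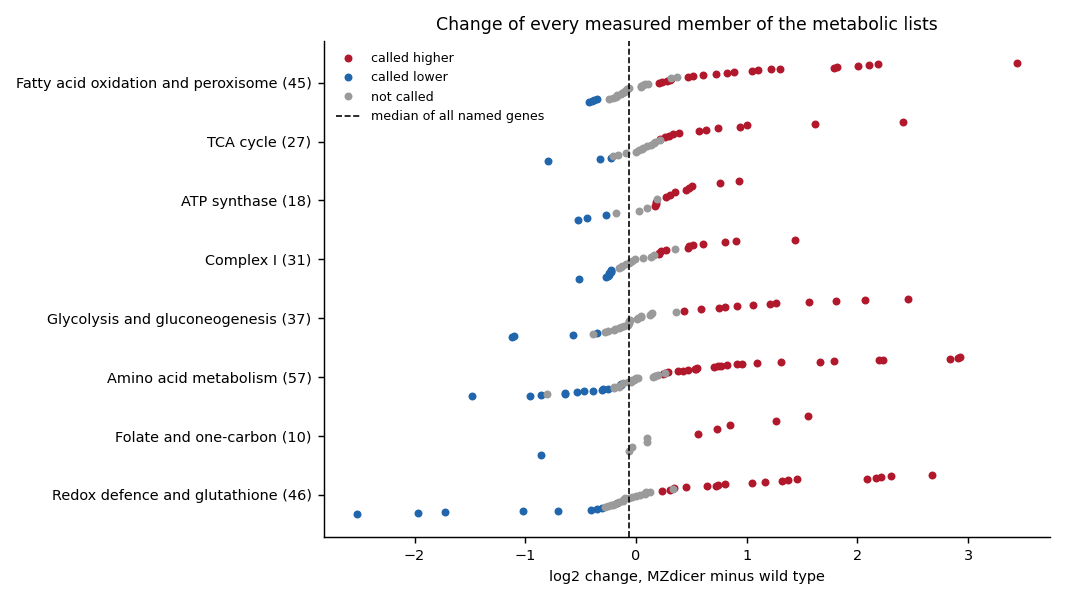
Log2 change, MZdicer minus wild type, of every measured member of 8 lists (fatty acid oxidation, TCA cycle, ATP synthase, complex I, glycolysis, amino acid, folate and redox), with genes called higher in red, called lower in blue and not called in grey, and a dashed line at the median of all named genes (-0.07). In each of these 8 the called rises reach further from the line than the called falls, with acadl at 3.44 furthest right and cyba, an NADPH oxidase subunit gene in the redox list, at -2.52 furthest left.

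DNA replication genes were higher in 25 of 48 cases and lower in 8, with a median of 0.28. The helicase genes mcm4 and mcm2 rose most. Levels of mcm4 were 2057, 2434 and 2245 in MZdicer, against 866, 811 and 694 in wild type (1.49 ± 0.15, adjusted p = 4.53e-06). Those of mcm2 were 2828, 2971 and 2735 against 1143, 1089 and 918 in wild type (1.43 ± 0.13, adjusted p = 9.96e-07). The groups did not overlap, but the other 4 subunits of the same hexameric helicase were not called, with changes from mcm3 (-0.13) to mcm5 (0.14). The clamp loader gene rfc1 was at 817, 722 and 678 in MZdicer, against 301, 287 and 275 in wild type (1.31 ± 0.09, adjusted p = 1.1e-07), again without overlap.

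Complexes of the replication fork were then read one by one, a grouping made after the values were seen. Of 6 origin recognition subunit genes 5 were higher and 0 lower, with a median of 0.46. Yet lrwd1, whose protein associates with that complex, had the largest change of the replication list, at 188, 201 and 173 in MZdicer against 1001, 834 and 1198 in wild type (-2.33 ± 0.13, adjusted p = 2.75e-08), with no overlap. All 3 replication protein A genes were higher (0.38 to 0.57), as were 3 of 4 replication factor C genes and 5 of 9 genes of DNA polymerases alpha, delta and epsilon. Regulators that license origins went the other way: cdc6, a loader of the helicase, was at 884, 879 and 866 in MZdicer against 1690, 1809 and 1851 in wild type (-1.01 ± 0.07, adjusted p = 1.1e-07). Geminin, gmnn, which blocks licensing, was at 854, 906 and 932 against 1510, 1423 and 1473 in wild type (-0.70 ± 0.07, adjusted p = 2.76e-06). Both separated the groups, and the loader gene cdt1 fell too (-0.53). Of 16 list members at least 2-fold higher at 16 cells than at 50% epiboly 11 were higher in MZdicer and 3 lower. Over all named genes of that class 797 of 2013 were higher and 326 lower. Replication list counts were 28 higher and 4 lower without normalisation, 25 and 12 under median centring, and 23 and 11 within the shared scan day.

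**Figure D5:**
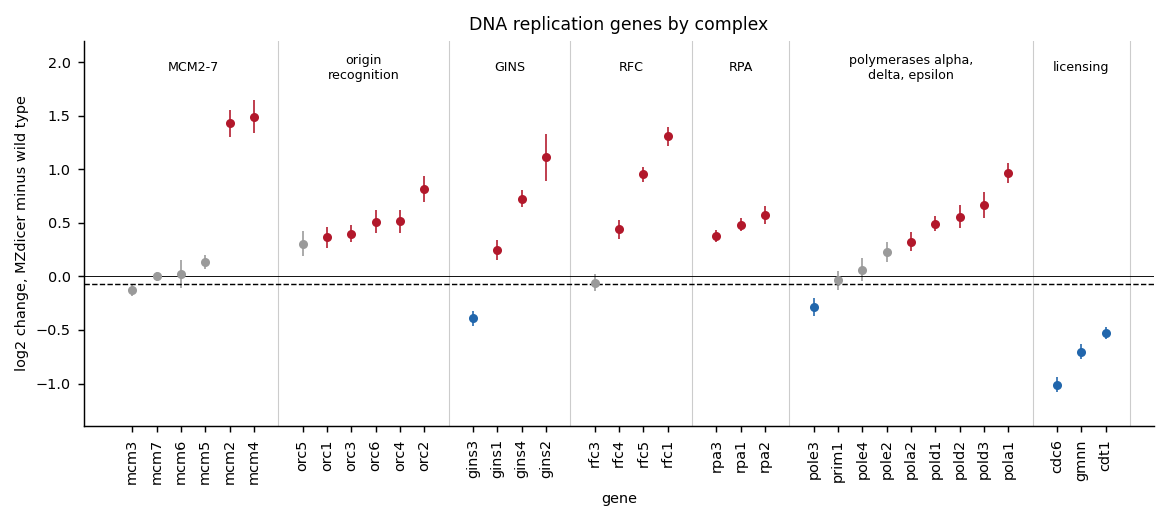
Log2 change, MZdicer minus wild type, with its standard error, of DNA replication genes grouped by complex, called higher in red, called lower in blue and not called in grey, with a dashed line at the median of all named genes (-0.07). Within the MCM2-7 helicase only mcm2 and mcm4 stand high, and the 3 licensing genes cdc6, gmnn and cdt1 all lie below -0.5.

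DNA repair and checkpoint genes had 18 of 39 higher and 3 lower, 11 and 1 of them by at least 1.5-fold. The histone variant gene h2ax, whose protein is phosphorylated at DNA breaks, was at 1012, 1131 and 1262 in MZdicer, against 416, 376 and 361 in wild type (1.52 ± 0.14, adjusted p = 1.31e-06). Levels of the checkpoint clamp gene rad1 were 99.3, 104 and 93.5 against 38.5, 42.9 and 32 in wild type (1.10 ± 0.10, adjusted p = 1.63e-06). Neither overlapped. The p53 pathway and apoptosis list leaned down, with 4 of 42 higher and 20 lower and a median of -0.27, and 13 lower with the values as deposited. Genes of both outcomes were among the falls. The death-promoting bik stood at 91.4, 118 and 117 in MZdicer, against 256, 229 and 222 in wild type (-1.01 ± 0.13, adjusted p = 2.07e-05). The survival gene mcl1b stood at 218, 235 and 212 against 467, 426 and 397 in wild type (-0.91 ± 0.11, adjusted p = 2.22e-05). The p53 inhibitor gene mdm4 rose (0.84 ± 0.09, adjusted p = 6.34e-06). Cyclins and cell cycle regulators divided about evenly, with 17 of 46 higher and 18 lower.

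Chaperone genes changed in both directions. In the list of heat shock proteins and chaperones 27 of 94 were higher and 21 lower, near the shares of all named genes. In the cytosol 7 of the 8 genes of the CCT chaperonin, which folds actin and tubulin, were higher and 0 lower, with a median of 0.25, a subset drawn up after the values were seen. In the endoplasmic reticulum 21 of 48 folding and unfolded-protein-response genes were lower and 14 higher, and 15 and 15 with the values as deposited. Over all named genes 1476 of 8793 were lower and 2552 higher with the deposited values. The list's median was -0.17 here and -0.06 as deposited, against -0.07 and 0.03 over all named genes. The balance of called members thus turned with scaling, while the median stayed below that of all named genes. Of the list's 10 signal sequence receptor and translocon genes, also chosen after the values were seen, 8 were lower and 0 higher. That subset was not counted under the other scalings. The luminal chaperone gene hsp90b1 was at 161, 225 and 216 in MZdicer, against 433, 368 and 406 in wild type (-0.96 ± 0.11, adjusted p = 1.23e-05). The co-chaperone gene dnajc3a was at 48.5, 65.6 and 57.5 against 207, 163 and 197 in wild type (-1.49 ± 0.12, adjusted p = 5.59e-07). Opposed to these, the oligosaccharyltransferase gene stt3b was at 305, 333 and 324 in MZdicer against 127, 90.8 and 90.9 in wild type (1.51 ± 0.12, adjusted p = 4.72e-07). None of the 3 overlapped. In injected embryos 25 of the 48 were lower in MZdicer and 7 higher, against 10.4% and 12.5% of all named genes. There dnajc3a stood at 55.5, 45.1 and 52.2 in injected MZdicer against 112, 93.9 and 93.7 in injected wild type.

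Cytoskeletal genes were more often raised. Of 58 actin and myosin genes 24 were higher and 3 lower, with a median of 0.13. The actin monomer-binding gene pfn2b was at 5212, 4655 and 4889 in MZdicer, against 2006, 2017 and 1802 in wild type (1.33 ± 0.06, adjusted p = 5.45e-09). The tropomyosin gene tpm4a was at 678, 681 and 576 against 231, 198 and 194 in wild type (1.56 ± 0.11, adjusted p = 1.53e-07). Both separated the groups. Under median centring the actin and myosin counts were 21 and 9, and 2 to 5 were lower as arrays were left out. Of 61 tubulin and microtubule motor genes 27 were higher and 11 lower, 16 and 2 of them by at least 1.5-fold. The microtubule plus-end gene mapre1a was at 1565, 1727 and 1637 in MZdicer, against 506, 471 and 475 in wild type (1.73 ± 0.06, adjusted p = 4.81e-10). The dynein light chain gene dynll1 was the largest fall, at 2881, 2844 and 3016 against 6045, 6303 and 6380 in wild type (-1.09 ± 0.06, adjusted p = 1.18e-08). These too did not overlap. Lower tubulin and motor genes were 5 to 12 as arrays were left out and 5 with the values as deposited.

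Patterning lists differed in their lean. Paraxial mesoderm and tailbud genes had 4 of 22 higher and 4 lower, and ventral mesoderm, blood and vessel genes 6 of 19 higher and 5 lower. With the values as deposited 8 were higher and 2 lower in the paraxial list, and 8 and 1 in the ventral list. Under median centring the counts were 3 and 4 in the paraxial list, and 5 and 7 in the ventral list. Nodal signals through Smad proteins and their partner foxh1 to induce mesoderm and endoderm, and 17 of 25 Nodal pathway genes were lower and 3 higher, with a median of -0.29. The lower count was 12 with the values as deposited, and without wild-type replicate 3 it was 12. Of 11 endoderm genes 7 were lower and 3 higher, with a median of -0.45. The endoderm factor gene gata6 stood at 625, 594 and 651 in MZdicer, against 1100, 1294 and 1354 in wild type (-0.98 ± 0.15, adjusted p = 1.22e-04). The notochord and endoderm factor gene foxa3 stood at 625, 581 and 598 against 1026, 1054 and 1177 in wild type (-0.83 ± 0.10, adjusted p = 2.24e-05). Neither overlapped, and foxa1, of the same family, went the other way at 148, 144 and 134 in MZdicer against 60.1, 52 and 55.9 in wild type (1.14 ± 0.17, adjusted p = 8.86e-05). The list's remaining rises were the chemokine receptor gene cxcr4a (0.31, adjusted p = 1.26e-04) and prdx5 (0.80), a peroxiredoxin gene that is no endoderm factor. The interaction with injection was called lower for 6 of the 11 endoderm genes and higher for 2, against 12.8% each way over all named genes. Axial mesoderm genes had 11 of 20 lower and 2 higher.

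In the BMP and dorsoventral list 18 of 47 genes were lower and 5 higher, and 11 and 6 with the values as deposited. Over all named genes 1476 of 8793 were lower and 2552 higher with the deposited values. The extracellular BMP modulator gene twsg1b was at 320, 394 and 362 in MZdicer, against 1048, 991 and 1040 in wild type (-1.48 ± 0.11, adjusted p = 1.86e-07). The ligand gene admp, made in the organiser, was at 519, 603 and 604 against 1223, 1144 and 1296 in wild type (-1.07 ± 0.07, adjusted p = 7.45e-08). Neither overlapped. Wnt pathway genes had 19 of 48 lower and 9 higher, and 11 and 10 with the values as deposited. The secreted Wnt inhibitor gene sfrp1a was at 662, 703 and 703 in MZdicer, against 1617, 1732 and 2126 in wild type (-1.38 ± 0.13, adjusted p = 2.02e-06). The gastrulation ligand gene wnt5b was higher at 465, 530 and 506 against 228, 318 and 291 in wild type (0.82 ± 0.13, adjusted p = 1.3e-04). Both separated the groups. Notch pathway genes leaned up, with 15 of 33 higher and 6 lower. The receptor gene notch3 was at 730, 902 and 858 in MZdicer, against 439, 496 and 478 in wild type (0.79 ± 0.09, adjusted p = 6.71e-06), with no overlap.

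Neural crest and placode border genes had 9 of 27 lower (33.3%) and 2 higher (7.41%), and 6 and 5 with the values as deposited. Over all named genes 27.7% were lower and 23.7% higher, and 1476 and 2552 of 8793 with the values as deposited. The placode factor gene foxi1 was at 660, 731 and 768 in MZdicer, against 1247, 1172 and 1165 in wild type (-0.72 ± 0.08, adjusted p = 6.89e-06). The Hox genes, which pattern the trunk along its length, had 13 of 42 higher and 8 lower, shares close to those of all named genes, but 10 rose and 1 fell by at least 1.5-fold. Counted over every probe set of these genes, 25 of 59 were higher and 8 lower, with a median of 0.22. The gene hoxc8a was at 2512, 2464 and 2369 in MZdicer, against 780, 825 and 675 in wild type (1.67 ± 0.08, adjusted p = 6.93e-09). Its other probe sets changed by 1.16 (adjusted p = 8.83e-06) and -0.02 (adjusted p = 0.882), so they disagree. Levels of hoxb10a were 320, 315 and 294 against 108, 79.1 and 72 in wild type (1.68 ± 0.17, adjusted p = 4.23e-06). The groups of all 3 genes stood apart. At 16 cells the first hoxc8a probe set was at 25.5 and 32.1 and at 50% epiboly at 97.2, so it was not among those declining early. Genes of differentiated neuron and muscle, mostly dim at this age, had 2 of 44 higher (4.55%) and 8 lower (18.2%). Both shares lay below those of all named genes.

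Over the whole array, transcripts more abundant at 16 cells in wild type were more often higher than lower in MZdicer. Classes were set by the 16-cell and 50% epiboly arrays, none of which is in the comparison, and the single 50% epiboly array gives them no replicate check. Of 3028 probe sets in the early class, at least 2-fold above 50% epiboly at 16 cells, 38.2% were higher in MZdicer and 14.8% lower. Of 2701 in the late class, at least 2-fold the other way, 25.3% were higher and 33.4% lower. Among the 9773 in between 16.4% were higher and 26.1% lower. Both of these other classes thus had more lower than higher calls with the quantile normalised values, and only the early class leaned up. The classes were not counted under the other scalings. Over all probe sets 4265 were higher and 2294 lower with the values as deposited, so the lean of the other classes may depend on scaling. With a limit of 4-fold the shares of the early class were 46.5% and 9.36%. Those of the late class were then 25.9% and 35.8%, and those in between 19.5% and 25.6%. The early class held 17 of 45 fatty acid, 11 of 37 glycolysis and 16 of 48 replication genes, and 2 of 69 ribosome biogenesis genes. Over all named genes it held 2013 of 8793. Other lists went against this order. Among lists more often raised, the early class held 3 of 27 TCA cycle, 3 of 18 ATP synthase and 8 of 58 actin and myosin genes. Among lists more often lower with the quantile normalised values, it held 15 of 40 Rab GTPase genes and 19 of 48 endoplasmic reticulum folding genes. Of the 40 Rab genes 15 were lower and 4 higher, but 6 and 7 with the values as deposited. The endoplasmic reticulum list had 15 lower and 15 higher as deposited, so neither list kept more lower than higher calls there.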

How the data were processed

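Whole-embryo RNA was measured on Affymetrix Zebrafish arrays. The deposited intensities, linear and 1 value per probe set, were used as the authors gave them in the series' value table; no label or header used here gives the step from scan to intensity. Control probe sets were removed, and 12 arrays (2 genotypes, with and without miR-430 injection) were quantile normalised, set to 0 where below 0 and put on a log2 scale with a pseudocount of 16. limma 3.58.1 (lmFit, eBayes with a mean-variance trend) was fitted over 4 groups of 3, after a check on simulated data. Genes were named from the platform annotation: 10795 probe sets had 1 symbol, 135 several and 4572 none, and 10711 were matched to RefSeq by Entrez number. The 68 lists and their members were chosen with earlier results of these data known. Genes named are, per list, up to 4 of the largest called rises and falls without overlap between groups, and all members of lists of 12 or fewer; others are said to be chosen later or are named where a count of 5 or fewer falls on them. Alternatives were the values as deposited, median centring, other pseudocounts, a filter on dim probe sets, blocks and leaving out each array.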

Additional observations from a re-analysis of the deposited data

Results flagged for a closer look

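Differences between the uninjected and the injected contrast stood out in 3 lists, where the interaction term of the fit was called for over 50% of the members. In ribosome biogenesis and RNA polymerase I it was called lower for 59 of 69 genes and higher for 0. In redox defence and glutathione it was called lower for 10 of 46 and higher for 14. In the endoderm list it was called lower for 6 of 11 and higher for 2. Over all named genes 12.8% were called in each direction. The causes were not tested.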

How the results depend on the processing

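The fit called 3444 probe sets higher and 3900 lower, with 1624 and 1014 changed at least 1.5-fold. Without normalisation of the deposited values the lower calls numbered 2294, and 644 reached 1.5-fold. With a pseudocount of 64, which shrinks the change of dim probe sets, 674 were at least 1.5-fold lower. With the dimmest 40% left out, and so fewer probe sets tested, 1041 were at least 1.5-fold higher. Leaving out each array in turn gave 3010 to 3638 higher and 3113 to 4219 lower, with 1578 to 1765 and 980 to 1207 by at least 1.5-fold. Replicate numbers did not pair the samples (correlations of -0.229, -0.161 and -0.0467), and with them as a replicate block 3364 were higher and 3754 lower, 1624 and 1015 by at least 1.5-fold. With hybridisation run as a random block 3197 were higher and 3424 lower. Arrays of 1 scan day only, an alternative chosen after seeing the data, gave 3808 higher and 4555 lower. Of the called genes named, ddx47, etfa and pmp22a lost their call under at least 1 alternative, and ddx47 did so under 14. The count of 3 arrays a group limits the precision, and dim probe sets carry the least certain changes.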

Other observations

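Gene pairs whose symbols differ only in a final a or b were compared. Such symbols can name gene copies, which can share probe sequence, but some name different subunits, such as polr1a and polr1b. Of 619 measured pairs 74 were called in opposite directions and 128 in the same direction. In 288 pairs 1 member was called, and in 129 neither. Of all named genes 23.7% were called higher and 27.7% lower. The synaptic vesicle chaperone copy dnajc5ga changed by 2.07 and dnajc5gb by -1.11. The copies ddx19a and ddx19b changed by 1.69 and -0.58.

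The coatomer gene copb2 had 3 probe sets that disagreed. They changed by 0.40, 0.05 and -5.19, the last with 35.4 ± 61.3 in MZdicer and 1133 ± 42.7 in wild type (SD, n = 3 each).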
